A study of Mus musculus with 21 samples.

Results

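The tRNA AspGTC genes encode the aspartate tRNA with the anticodon GTC. Every tRNA gene whose name ends in AspGTC was taken from the deposited tables, which gave 24 of 3283 predicted tRNA genes in the Pol III table and 12 of 1143 tRNA genes in the tRNA-seq table. On the mouse assembly mm9, 14 genomic loci carried an intact AspGTC gene sequence, and the cytosines of these loci were read from the bisulphite data. All samples were back skin of male mice at postnatal day 25, in anagen, the growth phase of the hair cycle. The mice were of the C57Bl6/J CBA F1 background, and the WT mice came from the same breedings as the NSun2-/- mice, which carry a gene trap of the German Gene Trap Consortium in the NSun2 gene. RNA bisulphite sequencing and tRNA-seq were each done on 4 WT and 4 NSun2-/- samples, described in the methods as independent biological replicates. Pol III ChIP-seq was done on 2 WT and 1 NSun2-/- samples with 1 input library per genotype, each from the pooled skin of 3 mice. Total skin holds many cell types, so that fewer cells of a type and less RNA per cell cannot be told apart.

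Aspartate tRNA brings aspartate to its codons on the ribosome and is made from many gene copies by RNA polymerase III. DNMT2 (gene Trdmt1) methylates the cytosine at position 38 of the anticodon loop, and NSun2 methylates the cytosines at the junction of the variable loop and the T arm, which are C48 and C49 in this tRNA. The first anticodon base of this tRNA is a site of queuosine, and adenosines at positions 9 and 58 can carry a methyl group (m1A) that makes reverse transcriptase stop or insert another base. Nucleases cut tRNAs in the anticodon loop, which leaves a 5′ fragment and a 3′ fragment that ends in the CCA added to every mature tRNA.

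The 14 loci held 2 gene sequences of 72 nucleotides, which are shown because the unconverted share at C48 differed between them. C38, C48 and C49 are in capitals.
AspGTC gene sequence 1, 13 copies: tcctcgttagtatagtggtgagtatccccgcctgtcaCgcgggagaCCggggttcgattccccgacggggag
AspGTC gene sequence 2, 1 copy: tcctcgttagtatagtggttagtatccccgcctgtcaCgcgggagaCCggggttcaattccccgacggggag
The sequences differ by G20T and G56A, where the base of gene sequence 1 comes first and positions count from 1 at the first base of the gene. Neither difference involves a cytosine, so both survive bisulphite treatment. Position 47 of the tRNA numbering is not present, so tRNA numbers above 46 are 1 higher than the gene position, and A58 is gene position 57. Gene sequence 2 belongs to chr10.trna856 on the minus strand of chromosome 10 (chr10:90644842-90644913, mm9), and chr10.trna851 on the same chromosome (chr10:92915723-92915794) carries gene sequence 1. A group of 5 copies lies on chromosome 1 between 172967160 and 173032573, with chr1.trna707 as the only one on the plus strand (chr1:173032502-173032573). Another group of 3 copies lies on chromosome 13, where chr13.trna979 (chr13:22032188-22032259) overlaps an exon of the processed transcript Gm11280. The remaining copies are a pair on chromosome 5 (chr5:125885977-125886048 and chr5:125889386-125889457) and a pair on chromosome 11, chr11.trna69 (chr11:7769780-7769851) and chr11.trna397 (chr11:68854486-68854557). Apart from chr13.trna979, the loci were intergenic in the annotation.

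A run of TTTT, at which Pol III ends transcription, was found within 20 bases after the gene at 14 of 14 loci, against 227 of 249 (91.2%) of the study's tRNA genes with coordinates. The letters TATAA, searched on the gene strand in the 50 bases before the gene, were found at 0 of 14 loci and at 23 of those 249 genes (9.24%). On chromosome 1, 3 loci share the same 50 bases upstream, which are shown because these copies cannot be told apart by this flank.
Upstream of chr1.trna1000 and of the loci starting at 173003124 and 173010738, minus strand: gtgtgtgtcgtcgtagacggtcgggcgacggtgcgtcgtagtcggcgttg

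The bisulphite libraries listed between 110324 and 665049 cytosines with a median of 16 or 17 reads each, where only cytosines with at least 10 reads are listed. The targeted gene checked the labels, since 23 to 48 cytosines of Nsun2 were listed in each WT library and 0 in each NSun2-/- library. Trdmt1 was listed at 0 cytosines in all 8 libraries, so its level was not detectable at this depth. Transcripts of keratinocytes (Krt5, 293 to 433 listed cytosines), fibroblasts (Col1a1, 1374 to 1721) and skeletal muscle (Acta1, 269 to 406) were present in every library. The tRNA-seq libraries held between 17352126 and 36749727 counts, and the Pol III libraries between 36866 and 95112 counts at tRNA genes.

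Bisulphite converts unmethylated cytosines, which are then read as T, so the percent of unconverted reads stands for m5C where conversion was complete. C48 and C49 of AspGTC lost most of this signal in NSun2-/- skin, while C38 kept it and was slightly higher. Values are means over 12 loci, weighted equally. A locus entered when 3 or more libraries per genotype covered it with 10 reads or more, and a library with fewer reads was left out at that locus. At C48, the 4 WT libraries had 92.3%, 94.9%, 92.4% and 91.7% unconverted reads and the 4 NSun2-/- libraries 33.6%, 39.5%, 30.5% and 26.4%. At C49, the WT libraries had 96.5%, 97.3%, 98.1% and 98.4% and the NSun2-/- libraries 28.3%, 36.4%, 28.9% and 19.5%. The groups lay far apart at both NSun2 positions. C48 fell by 60.3 percentage points and C49 by 69.3 points in NSun2-/- skin (exact two-sided permutation test, n = 4 and 4, p = 0.0286 for each, which is the smallest value that 70 assignments allow).

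C38, the DNMT2 position, had 80.7%, 76.2%, 88.3% and 84.0% unconverted reads in the WT libraries and 91.1%, 93.3%, 88.9% and 91.7% in the NSun2-/- libraries. All NSun2-/- libraries lay above all WT libraries, but the third WT library (88.3%) came within 1 point of the third NSun2-/- library (88.9%). On average C38 was at 82.3% ± 5.11 (SD, n = 4) in WT and at 91.2% ± 1.82 (SD, n = 4) in the knockout, 8.92 points apart (exact permutation test, p = 0.0286). Reads at C38, summed over loci, numbered 8999 to 15610 in the WT libraries and 520 to 2448 in the NSun2-/- libraries, so the knockout values rest on fewer reads.

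Cytosines with no known methylation in the same tRNA were taken as a measure of incomplete conversion. Those 5′ of the anticodon (10 loci) had 1.77%, 2.23%, 1.65% and 3.07% unconverted reads in the WT libraries and 25.2%, 34.9%, 1.19% and 13.7% in the NSun2-/- libraries. The NSun2-/- libraries thus ranged from below all WT libraries (the third) to over 10 times the WT level (the second), and the groups overlapped (difference 16.6 points, exact permutation test, p = 0.143). Without the third NSun2-/- library the difference was 23.2 points (exact permutation test, p = 0.0286, the smallest value with 35 assignments). With this level subtracted within each library, C38 stood at 79.0, 74.0, 86.7 and 80.9 points in WT and 65.9, 58.4, 87.7 and 77.9 points in NSun2-/- skin, which overlap (difference -7.65, exact permutation test, p = 0.343). When a library was left out this value ran from -14.1 (without the third NSun2-/- library, exact permutation test, p = 0.0571) to -2.95 (without the second). Subtraction takes the 5′ level off methylated reads too, which incomplete conversion does not concern. Scaling instead by the part of the cytosines that had been converted gave a C38 difference of 7.30 points (exact permutation test, p = 0.0571). The sign of the small C38 difference thus depended on how the 5′ level was applied. With scaling, C48 fell to 11.3%, 7.09%, 29.6% and 14.7% and C49 to 4.20%, 2.23%, 28.03% and 6.71% in the NSun2-/- libraries. The third NSun2-/- library, with the lowest 5′ level, kept the highest corrected C48 and C49. The part of incomplete conversion in the C38 difference was not tested.

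**Figure D1:**
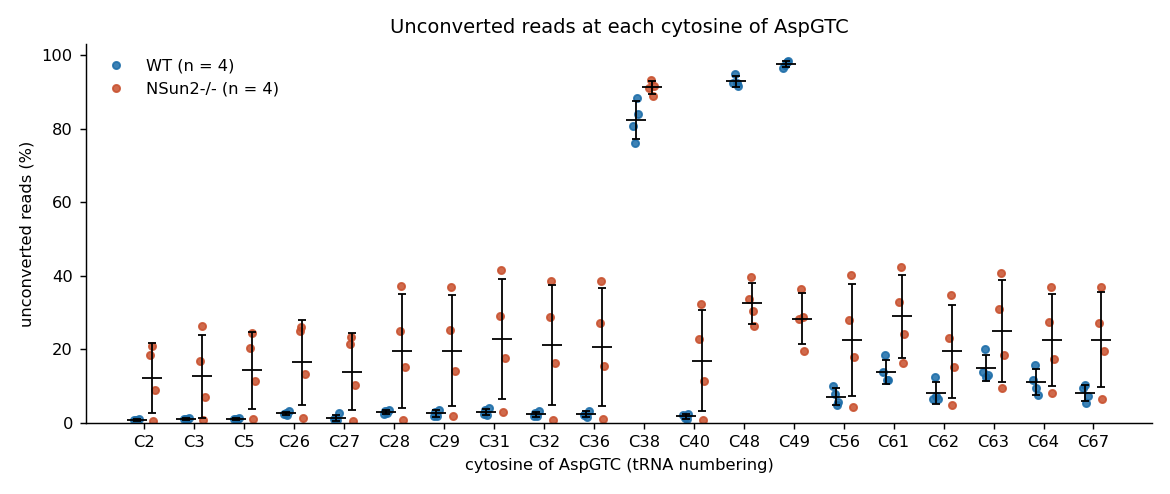
Percent of unconverted reads (y axis) at each of 20 cytosines of AspGTC in tRNA numbering (x axis), 1 point per library, with bars for the mean and SD of 4 WT (blue) and 4 NSun2-/- (red) libraries. C48 and C49 drop from above 90% to below 40% in NSun2-/- skin, C38 stays above 75% in every library, and the other cytosines spread up to about 42.3% in NSun2-/- skin while the third NSun2-/- library stays near the WT level.

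Across the other 17 cytosines the same spread was seen from end to end of the tRNA. In WT, those from C2 to C36 and C40 lay between 0.416% and 3.93% in every library. The 6 cytosines of the T arm and acceptor end, C56, C61, C62, C63, C64 and C67, were higher in WT, between 4.93% and 20.0%. C61 and C63 reached the highest WT means, 13.9% ± 3.29 and 14.8% ± 3.47 (SD, n = 4). In the second NSun2-/- library, which had the fewest reads, these T arm cytosines lay between 34.7% and 42.3%.

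A fit over all listed cytosines (edgeR quasi-likelihood test on unconverted and converted counts, Benjamini-Hochberg adjusted p under 0.05 and at least 10 points of difference) tested 122736 cytosines, of which 180 (0.147%) were called lower and 140 (0.114%) higher in NSun2-/- skin. Of the 209 AspGTC cytosines tested, 23 were called lower and 39 higher. The 23 lower ones were all among the 24 tested cytosines at C48 and C49, and C48 of chr10.trna856 was the exception. C38 was called at 0 of 12 loci, where differences ranged from 2.70 to 15.3 points (edgeR, adjusted p = 1 at each locus). At an unadjusted p under 0.05, 1 of the 12 C38 cytosines passed, and limma called 0. The 39 higher calls were among the other 173 cytosines, with at most 6 loci called at any position (C32 and C40). These higher calls depended on single libraries, since 81 were made without the third NSun2-/- library, 1 without the first, 6 without the fourth, and 0 with limma or with a minimum of 30 reads. C48 and C49 kept 23 of 24 calls without any WT library or the second NSun2-/- library, and 17 of 18 where leaving out another NSun2-/- library or the minimum of 30 reads reduced the loci tested. The 13 copies of gene sequence 1 are identical, so their loci are not independent, and the methods state that bisulphite reads with a unique best alignment were used. How reads were assigned among identical copies under that rule is not given in the sources used here.

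The 2 gene sequences differed at C48 in WT skin, a contrast chosen after the values were seen. Over the 11 loci of gene sequence 1, C48 had 96.7%, 98.3%, 96.9% and 96.2% unconverted reads in WT and 33.1%, 37.9%, 31.6% and 25.9% in NSun2-/- skin. At chr10.trna856, the copy of gene sequence 2, C48 had 44.4%, 58.1%, 43.4% and 41.8% in WT, from 825 to 1476 reads, and 40.0%, 52.5%, 18.3% and 31.96% in NSun2-/- skin, from 61 to 252 reads. C48 of gene sequence 2 was thus near the middle of the scale in every WT library and overlapped with the knockout (difference -11.2 points, exact permutation test, p = 0.2). These values were not corrected for the 5′ level. At this copy that level was 1.48% to 2.16% in WT and 19.7%, 29.2%, 1.34% and 10.4% in NSun2-/- skin, and its part in the overlap was not tested. Within a library, gene sequence 1 exceeded gene sequence 2 at C48 by 52.3, 40.2, 53.5 and 54.4 points in WT and by -6.93, -14.5, 13.3 and -6.08 points in NSun2-/- skin. This difference fell by 53.7 points (exact permutation test, p = 0.0286), and it lay between -59.3 and -50.0 points when each library was left out in turn.

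In WT, C49 of the same copy was as high as that of gene sequence 1. At C49, chr10.trna856 had 97.2%, 97.2%, 98.3% and 98.9% in WT and 39.5%, 41.7%, 40.2% and 36.5% in NSun2-/- skin. Within a library, gene sequence 1 differed from gene sequence 2 at C49 by -0.768 to 0.170 points in WT and by -18.5 to -5.95 points in NSun2-/- skin, a change of -11.9 points (exact permutation test, p = 0.0286). Cytosines of the T arm and acceptor end changed by a similar amount in the same direction, with -10.5 points at C56, -8.23 at C61, -10.8 at C63 and at C64 and -9.79 at C67 (exact permutation test, p = 0.0286 for each), so the C49 change was not particular to the NSun2 position. C38 of chr10.trna856 had 80.5%, 77.5%, 90.4% and 87.5% in WT and 93.8%, 95.0%, 89.96% and 90.6% in NSun2-/- skin. At C38 the difference between the gene sequences changed by 0.61 points between genotypes (exact permutation test, p = 0.629). Among the 11 other loci, WT means at C48 lay between 95.5% and 98.0%.

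**Figure D2:**
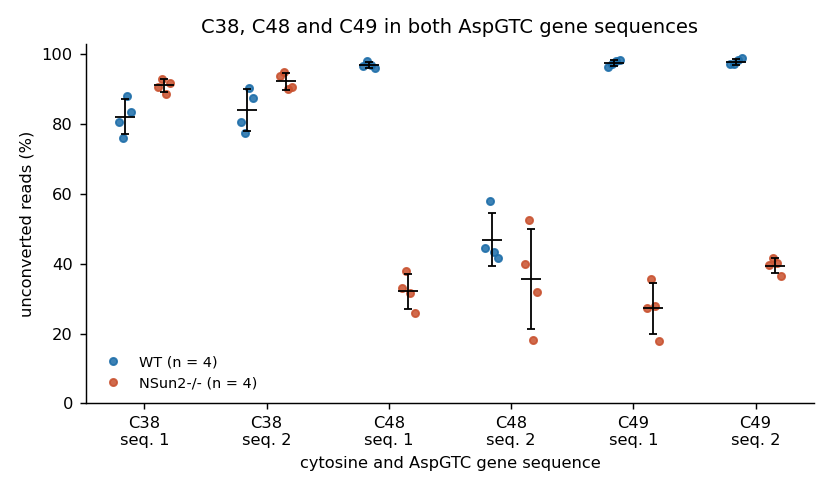
Percent of unconverted reads (y axis) at C38, C48 and C49 of gene sequence 1 (mean of 11 loci) and gene sequence 2 (1 locus, chr10.trna856), 1 point per library with the mean and SD of 4 WT (blue) and 4 NSun2-/- (red) libraries. C48 of gene sequence 2 lies between 41.8% and 58.1% in WT, while C48 of gene sequence 1 and C49 of both lie above 96.0%.

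GlyGCC and ValAAC, the other tRNAs known as DNMT2 substrates, were read in the same way. C38 of GlyGCC (10 genes) had 87.3%, 91.7%, 86.1% and 85.5% in WT and 85.2%, 86.9%, 87.3% and 84.8% in NSun2-/- skin (difference -1.59 points, exact permutation test, p = 0.4). Its cytosines 5′ of the anticodon lay between 0.661% and 0.959% in WT and were 1.56%, 3.79%, 0.587% and 1.17% in NSun2-/- skin. C38 of ValAAC (3 genes) lay between 58.9% and 63.4% in WT and was 74.1%, 69.0%, 72.2% and 69.7% in NSun2-/- skin (difference 9.30 points, exact permutation test, p = 0.0286). Its 5′ cytosines lay between 15.3% and 39.8% in WT and were 64.3%, 74.1%, 0.962% and 58.3% in NSun2-/- skin. In each of the 3 tRNAs, the 5′ cytosines were above all WT libraries in the same 3 NSun2-/- libraries and below them in the third. The level reached in those 3 libraries was far lower in GlyGCC. In the third NSun2-/- library, ValAAC had a 5′ level of 0.962% and C38 at 72.2%. The part of the 5′ level in the C38 differences was not tested.

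AspGTC made up less of the bisulphite reads in NSun2-/- skin. Its share of the reads over cytosines of all tRNA genes was 1.39%, 1.66%, 1.43% and 1.69% in the WT libraries and 0.444%, 0.703%, 0.292% and 0.401% in the NSun2-/- libraries (difference -1.08 points, exact permutation test, p = 0.0286). The groups did not overlap, and the log2 change of the share of -1.75 was the lowest of the 15 families with enough reads. GlyGCC held 92.0% of these reads in WT and 89.4% in NSun2-/- skin. The loss was larger at the 5′ end of the tRNA. Reads at C2 were 0.724, 0.707, 0.697 and 0.609 of those at C48 in WT and 0.352, 0.267, 0.306 and 0.342 in NSun2-/- skin (difference -0.368, exact permutation test, p = 0.0286). Between C38 and C48 the ratio was 0.976 to 0.993 in WT and 0.888 to 0.897 in NSun2-/- skin. The log2 change of the ratio of 5′ to 3′ reads, -0.72, was the lowest of the 15 families, while MetCAT (1.57), GluTTC (0.97) and HisGTG (0.79) moved further in the opposite direction. Because only cytosines with at least 10 reads are listed, a locus below that in a library added no reads to these shares and ratios. Listed reads at C2 numbered 155 to 909 in the NSun2-/- libraries and 6414 to 10799 in the WT libraries. The part of this limit in the shares and ratios was not tested.

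In tRNA-seq, 2903 of the 53875 entries of the table, each a read sequence at a gene with its 8 counts, belonged to AspGTC genes and held 2210 of 32286 distinct sequences. The counts of 2047 of these entries (70.5%) shared a common factor above 1, up to 72, so that they are not numbers of independent reads. All entries with a factor of 9 or more were listed at chr10.trna851, among them 890 entries with a factor of 65 and 660 with a factor of 52. Among the most abundant sequences, summed over genes, the exact 3′ fragment and the exact mature tRNA were multiplied 8 times, the 5′ fragments 14 times, and 3′ fragments and mature reads with mismatches 52 or 65 times. Results below are therefore named as from the deposited counts or as after division by the common factor. The division was chosen after seeing the data.

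As a share of all counts in a library, AspGTC had 1.58%, 3.29%, 1.54% and 1.89% in WT and 1.08%, 0.593%, 1.47% and 1.33% in NSun2-/- skin (difference -0.956 points, exact permutation test, p = 0.0286). Every WT library lay above every NSun2-/- library, but the third of each differed by less than 0.1 points. These shares averaged 2.07% for WT against 1.12% for the knockout. Only the AspGTC counts were divided, while the library total stayed as deposited, so values after division are not shares of like counts. On that scale they averaged 0.126% and 0.0631%, a similar ratio, but the groups overlapped (difference -0.063 points, exact permutation test, p = 0.0571).

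AspGTC reads were sorted by the part of the tRNA they cover. A 5′ fragment has 25 to 40 nt from the first nucleotide, a 3′ fragment has 25 to 40 nt up to the CCA end, and a mature read covers at least 90% of the gene with CCA. Mature reads made up less of the AspGTC reads in NSun2-/- skin. After division they were 19.8%, 20.3%, 20.4% and 16.6% in WT and 14.7%, 7.02%, 10.5% and 14.3% in NSun2-/- skin (difference -7.66 points, exact permutation test, p = 0.0286). With deposited counts the difference was nearly the same, -7.61 points, but the groups overlapped because the fourth NSun2-/- library reached 30.8% (exact permutation test, p = 0.0857). The 5′ fragments were 17.3%, 36.6%, 33.9% and 33.9% in WT and 37.3%, 46.2%, 44.6% and 32.7% in NSun2-/- skin after division, and the groups overlapped (difference 9.74 points, exact permutation test, p = 0.171). With deposited counts their difference was 3.72 points (exact permutation test, p = 0.543), and without the first WT library it was -0.0837 points. As an alternative, reads placed from position 4 that began with the gene's first 4 letters were also counted as 5′ fragments. The divided values then rose to 23.9%, 43.4%, 42.3% and 43.7% in WT and 47.5%, 63.1%, 60.4% and 45.1% in NSun2-/- skin (difference 15.7 points, exact permutation test, p = 0.0286). With exact sequences alone, 5′ fragments differed by 17.9 points with deposited counts (exact permutation test, p = 0.0571) and by 18.7 points after division, where all NSun2-/- libraries were above all WT libraries (exact permutation test, p = 0.0286). The 3′ fragments with CCA overlapped between genotypes (difference -6.01 points after division, exact permutation test, p = 0.171, and -0.564 with deposited counts, p = 0.886).

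**Figure D3:**
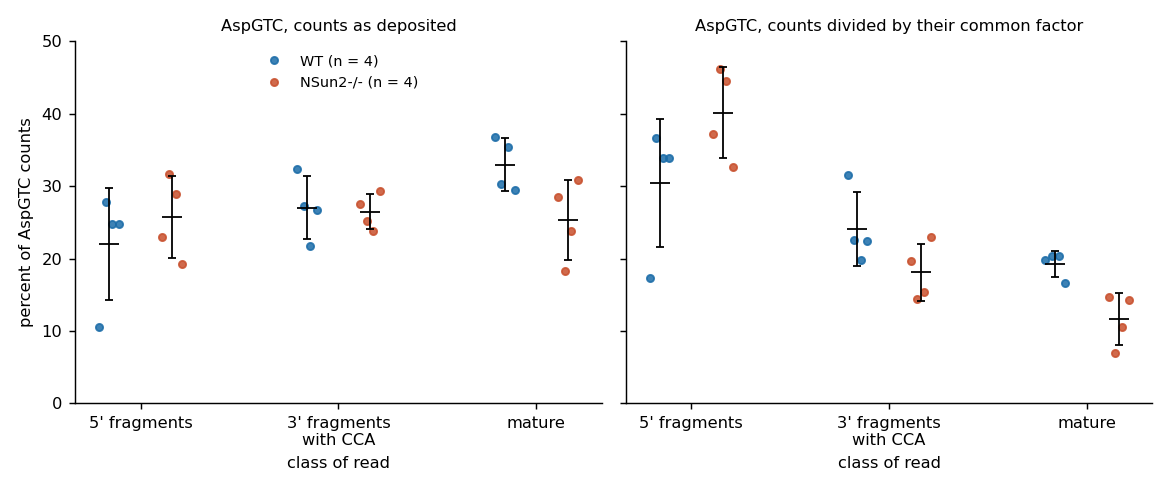
Percent of AspGTC counts (y axis) in 5′ fragments, 3′ fragments with CCA and mature reads (x axis), from the deposited counts on the left and after division by the common factor on the right, 1 point per library with the mean and SD of 4 WT (blue) and 4 NSun2-/- (red) libraries. On the right, mature reads lie between 16.6% and 20.4% in WT and between 7.02% and 14.7% in NSun2-/- skin.

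Set against the undivided library total, as CPM (counts scaled to an equal library total), the divided counts gave lower levels of mature reads and 3′ fragments in NSun2-/- skin. Mature reads were 167, 418, 194 and 198 CPM in WT and 82.6, 26.4, 93.1 and 99.6 CPM in NSun2-/- skin (exact permutation test, p = 0.0286). The 3′ fragments were 266, 464, 189 and 268 CPM in WT and 111, 54.2, 136 and 160 CPM in NSun2-/- skin (exact permutation test, p = 0.0286). With deposited counts, mature reads were also lower (difference -3754 CPM, exact permutation test, p = 0.0286), while 3′ fragments overlapped (difference -2651 CPM, exact permutation test, p = 0.0857). After division the second WT library was the highest in both classes and the second NSun2-/- library, the most deeply sequenced, the lowest. The 5′ fragments, at 146 to 753 CPM in WT and 174 to 395 CPM in NSun2-/- skin, overlapped (exact permutation test, p = 0.343).

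Each class was also fitted over all isoacceptor families with edgeR's quasi-likelihood test on deposited counts and TMM scaling. Among 5′ fragments, 9 of 42 families (21.4%) were called, all of them higher in NSun2-/- skin. AspGTC was not called, with a log2 fold change (NSun2-/- over WT) of -0.61 ± 0.40 (SE, edgeR, adjusted p = 0.241). In CPM of the whole library, AspGTC 5′ fragments were at 1669, 9127, 3813 and 4688 in WT and 2473, 1877, 4270 and 2555 in NSun2-/- skin. Among 3′ fragments with CCA, 7 of 37 families (18.9%) were called, and AspGTC had a log2 fold change of 0.68 ± 0.24 (SE, edgeR, adjusted p = 0.0882). The sign of the 3′ value depended on the scaling, since it was -0.92 when scaled by all tRNA-seq counts (edgeR, adjusted p = 0.111), where the median of all families was -1.56. DESeq2 called AspGTC among 3′ fragments (log2 fold change 0.68, adjusted p = 0.0235). Among mature reads, 0 of 17 families (0%) were called with edgeR and 0 with DESeq2. At an unadjusted p under 0.05, 4 of 17 passed, all lower in NSun2-/- skin, and AspGTC was among them (log2 fold change -0.49 ± 0.21 SE, edgeR, adjusted p = 0.168). With exact sequences alone, mature AspGTC was called lower (log2 fold change -1.54, edgeR, adjusted p = 0.0128). ValAAC 5′ fragments were called higher (log2 fold change 1.45, edgeR, adjusted p = 0.0152), whereas GlyGCC 5′ fragments were not called (log2 fold change 0.13, edgeR, adjusted p = 0.474).

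The families whose 5′ fragments varied most like those of AspGTC over the 8 libraries, as Pearson's r of log2 CPM among 40 families, were LysCTT (0.738), GlyTCC (0.666), CysGCA (0.661), ProCGG (0.658) and LeuTAA (0.570). These values share libraries and depth and are a description.

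Single read sequences kept the length and end that family totals lose. Of the 5 most abundant of each class, 7 are shown, as exact sequences beside ones with mismatches to the gene, which are in capitals.
5′ fragment of 33 nt: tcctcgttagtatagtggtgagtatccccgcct
5′ fragment of 35 nt: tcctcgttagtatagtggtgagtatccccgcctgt
3′ fragment of 40 nt, exact: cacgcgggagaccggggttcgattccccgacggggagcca
3′ fragment of 40 nt with A57T: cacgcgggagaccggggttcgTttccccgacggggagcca
mature tRNA of 75 nt, exact: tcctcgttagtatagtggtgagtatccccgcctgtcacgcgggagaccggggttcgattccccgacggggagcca
mature tRNA of 75 nt with A9T: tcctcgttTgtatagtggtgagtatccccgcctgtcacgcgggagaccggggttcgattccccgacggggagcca
mature tRNA of 75 nt with G6C and A9G: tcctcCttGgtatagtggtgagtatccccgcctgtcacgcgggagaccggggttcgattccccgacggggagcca
The exact mature tRNA had 1201, 4386, 2462 and 2336 reads after division in WT and 458, 285, 576 and 367 in NSun2-/- skin. Every NSun2-/- library was below every WT library. In the fit over all read sequences, made on the deposited counts summed over genes, its log2 fold change was -2.42 ± 0.43 (SE, edgeR, adjusted p = 0.0275). The mature form with A9T had 142, 160, 170 and 177 reads in WT and 112, 67, 144 and 128 in NSun2-/- skin (log2 fold change -0.30 ± 0.32 SE, edgeR, adjusted p = 0.751). The form with G6C and A9G had 166, 234, 245 and 222 reads in WT and 128, 82, 166 and 161 in NSun2-/- skin (log2 fold change -0.46 ± 0.33 SE, edgeR, adjusted p = 0.609). The exact mature form thus had different values from these forms with another base at A9, and only the exact form was called among them. The contrast did not extend to all forms with mismatches. A less abundant mature sequence with 1 mismatch had 11, 24, 24 and 13 reads in WT and 2, 3, 3 and 2 in NSun2-/- skin. It was called (log2 fold change -2.67 ± 0.37 SE, edgeR, adjusted p = 0.0192). Another had 10, 28, 15 and 11 reads in WT and 3, 2, 3 and 2 in NSun2-/- skin. It was also called (log2 fold change -2.49 ± 0.41 SE, edgeR, adjusted p = 0.0246).

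The fragments shown were not called. The 33 nt 5′ fragment had 685, 6467, 3311 and 3202 reads in WT and 1307, 1539, 2768 and 995 in NSun2-/- skin (log2 fold change -0.88 ± 0.58 SE, edgeR, adjusted p = 0.565). The 35 nt 5′ fragment, which extends into the anticodon, had 328, 774, 743 and 847 reads in WT and 672, 909, 950 and 530 in NSun2-/- skin (log2 fold change 0.36 ± 0.33 SE, edgeR, adjusted p = 0.704). The exact 3′ fragment had 1921, 3607, 1868 and 2635 reads in WT and 650, 519, 1062 and 1104 in NSun2-/- skin, without overlap (log2 fold change -1.34 ± 0.40 SE, edgeR, adjusted p = 0.145). Its A57T form had 366, 873, 335 and 591 reads in WT and 305, 245, 488 and 526 in NSun2-/- skin, which overlap (log2 fold change -0.21 ± 0.43 SE, edgeR, adjusted p = 0.888). The other 8 of the 15 most abundant sequences had log2 fold changes from -1.02 to 0.16, and 0 of these were called (edgeR, adjusted p from 0.272 to 0.984).

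Over all read sequences, 194 of 12868 (1.51%) were called lower and 120 (0.933%) higher in NSun2-/- skin. Of the 499 AspGTC sequences tested, 16 were called lower and 1 higher (edgeR). By class these were 8 of 69 mature sequences, 2 of 93 3′ fragments with CCA, 2 of 111 5′ fragments and 5 of 225 other sequences. In 12 of the 17, all 4 libraries of one genotype had 0 reads and each library of the other had at most 11 after division. The fit used deposited counts, in which common factors multiply such few reads. Neither these 12 calls nor their fitted fold changes are therefore interpreted, and the counts by class include them. The calls depended on the fit, with 65 in DESeq2, 2 without a filter on low counts, and 0 to 13 when a library was left out. It was 13 without the first WT library, 0 without any other WT library or the first NSun2-/- library, and 1 or 2 without another NSun2-/- library. With the replicate number as a block 0 were called (edgeR), while 73 of 499 had an unadjusted p under 0.05.

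Another base at A58, and at A9 in mature reads, was more frequent in AspGTC of NSun2-/- skin, measured on divided counts. In 3′ fragments with CCA, A58 was read as another base in 15.4%, 19.7%, 16.3% and 19.9% of reads in WT and in 31.4%, 36.01%, 34.5% and 35.8% in NSun2-/- skin. The groups were well apart (difference 16.6 points, exact permutation test, p = 0.0286), and most of the substitutions were to T (16.5% in WT and 31.9% in NSun2-/- skin on average). Mature reads had another base at A58 in 4.73%, 6.06%, 5.44% and 5.53% of cases in WT and in 11.02%, 9.77%, 8.17% and 7.38% in NSun2-/- skin (difference 3.65 points, exact permutation test, p = 0.0286). That smaller difference was 1.66 points with deposited counts (exact permutation test, p = 0.457).

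At A9, mature reads had another base in 41.0%, 20.1%, 35.2% and 35.6% of cases in WT and in 54.7%, 57.4%, 61.1% and 70.9% in NSun2-/- skin (difference 28.04 points, exact permutation test, p = 0.0286, and 21.2 points with deposited counts, p = 0.0286). The second WT library was the lowest by far, and all NSun2-/- libraries were above all WT libraries. The most abundant mature sequence by deposited counts, 72 nt placed from position 4, carried A9G together with G6C. It had 482, 545, 706 and 645 reads after division in WT and 349, 245, 590 and 483 in NSun2-/- skin. Whether this linked pair is a misread A9 or a sequence variant was not tested. In 5′ fragments, A9 had another base in 16.2% to 28.9% of reads in WT and 19.8% to 35.5% in NSun2-/- skin, which overlap (exact permutation test, p = 0.314). Mature reads without any mismatch were 41.2%, 61.7%, 53.0% and 53.5% in WT and 28.4%, 29.7%, 26.3% and 21.4% in NSun2-/- skin (difference -25.9 points, exact permutation test, p = 0.0286). With deposited counts, which multiply sequences with mismatches more, they were 9.44% to 20.7% in WT and 4.13% to 6.09% in NSun2-/- skin (difference -9.68 points, exact permutation test, p = 0.0286). At deposited counts the A58 difference in 3′ fragments of AspGTC, 17.2 points, was set beside the other combinations of family and class with enough reads. Among these, GluCTC 3′ fragments had the next value, 14.1 points (exact permutation test, p = 0.0571), GlyTCC 3′ fragments had 8.07 points (p = 0.0286) and SerAGA 3′ fragments had the lowest, -4.76 points (p = 0.343). The order in points depends on the WT level, which left many families little room to rise. AspGTC 3′ fragments went from 50.7% in WT to 67.9% in NSun2-/- skin, and those of GlyTCC from 89.6% to 97.7%. GlyGCC 3′ fragments went from 96.7% to 99.5% (exact permutation test, p = 0.0286). The order thus does not show that the rise was particular to AspGTC.

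The ends of the fragments lay in the anticodon loop in both genotypes. Of 5′ fragments, 98.3%, 99.3%, 98.9% and 98.7% ended at positions 32 to 38 in WT and 97.8%, 97.0%, 97.7% and 98.3% in NSun2-/- skin with deposited counts (difference -1.09 points, exact permutation test, p = 0.0571). After division the difference was -1.38 points (exact permutation test, p = 0.0286). Within the loop, ends just before the anticodon (position 33) made up 52.5%, 73.7%, 63.1% and 60.7% of divided counts in WT and 46.02%, 46.3%, 54.2% and 43.4% in NSun2-/- skin. Ends at position 35 made up 22.8%, 9.85%, 15.6% and 17.4% in WT and 30.4%, 30.0%, 21.9% and 29.9% in NSun2-/- skin. At each of these ends 1 library overlapped with the other genotype, and neither difference passed (-15.0 and 11.7 points, exact permutation test, p = 0.0571 for each, 0.21 after adjustment over 11 end positions). Starts were counted over all reads up to the CCA end that start at 34 to 44. Those starting at position 35 were 4.53% to 9.90% in WT and 8.02% to 18.2% in NSun2-/- skin (exact permutation test, p = 0.0571). Reads starting at 34 or 35 are longer than 40 nt, so the 3′ fragment class defined above leaves them out. Of the 5′ fragments, 12.8% to 18.6% in WT and 14.6% to 23.1% in NSun2-/- skin came from gene sequence 2 after division (exact permutation test, p = 0.2). With deposited counts these shares were 1.06% to 1.62% in WT and 1.30% to 2.15% in NSun2-/- skin (exact permutation test, p = 0.171).

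**Figure D4:**
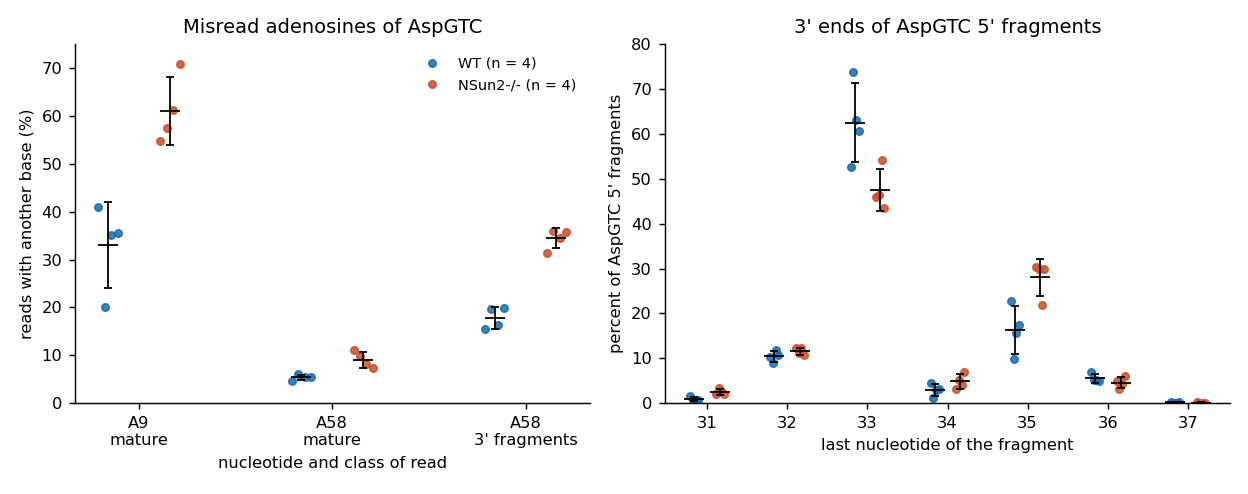
Left, percent of AspGTC reads with another base (y axis) at A9 and A58 by class of read, and right, percent of 5′ fragments (y axis) by their last nucleotide (x axis), from divided counts, 1 point per library with the mean and SD of 4 WT (blue) and 4 NSun2-/- (red) libraries. A58 in 3′ fragments lies between 15.4% and 19.9% in WT and between 31.4% and 36.01% in NSun2-/- skin, and most 5′ fragments of both genotypes end at position 33 or 35.

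Pol III occupancy addressed whether the AspGTC genes themselves were transcribed differently, and with 1 NSun2-/- library it has no replicate check. Bound genes were those with 10 reads or more in each WT library whose RPM (reads scaled to an equal total at tRNA genes) reached 2-fold that of the WT input. Of the 24 listed AspGTC genes, 10 were bound, against 220 of 3283 tRNA genes in all. Another 11 had fewer than 10 reads in a WT library, among them chr11.trna69, and 3 (chr1.trna1000, chr1.trna994 and chr1.trna997) had enough reads but did not exceed the input 2-fold. By the mean of the WT libraries, the highest bound gene was chr11.trna397 with 7568 and 3849 RPM in WT and 4500 RPM in NSun2-/- skin. In the second WT library and in NSun2-/- skin, chr10.trna851 was higher, at 4625 and 5593 RPM. The copy of gene sequence 2, chr10.trna856, was bound at 3581 and 3421 RPM in WT and 3291 RPM in NSun2-/- skin. The lowest was chr13.trna981 with 1329 and 1394 RPM in WT and 1146 RPM in NSun2-/- skin.

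The NSun2-/- library lay close to the WT libraries at the bound AspGTC genes. The log2 ratio of NSun2-/- to mean WT, with 1 read added to each count, ranged from -0.26 (chr11.trna397) to 0.29 (chr10.trna851) with a median of -0.07, and 4 of 10 were above 0. The log2 ratio of the second to the first WT library ranged from -0.97 to 0.20. That ratio sets single libraries against each other, unlike the one with mean WT. Against a single WT library, NSun2-/- ranged from -0.75 to 0.31 (first) and from -0.29 to 0.31 (second). No bound AspGTC gene passed 2-fold (0 of 10), against 3 of 220 bound tRNA genes (1.36%), whose median ratio was 0.17. Scaled by the counts at bound genes alone, the AspGTC median was -0.29, with 1 of 10 above 0.

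**Figure D5:**
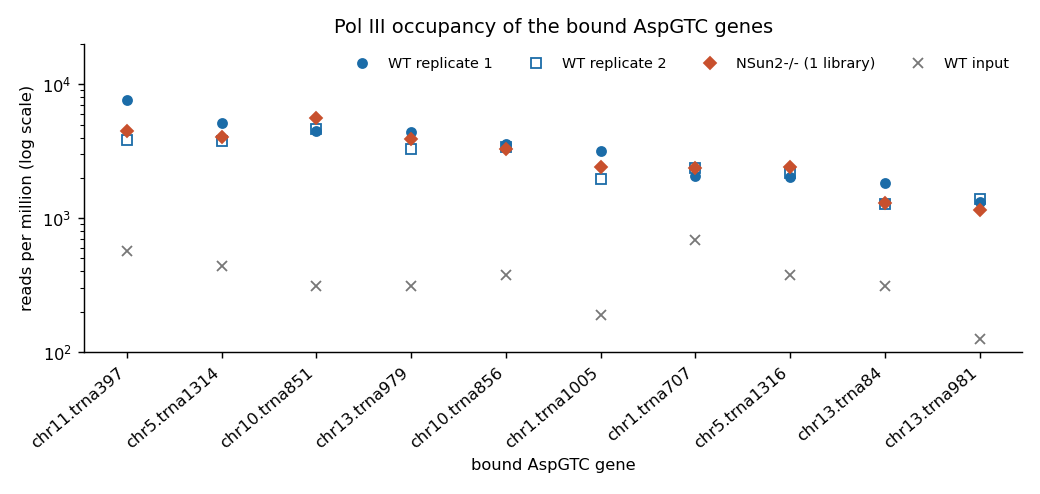
RPM on a log scale (y axis) at the 10 bound AspGTC genes (x axis) in the 2 WT Pol III libraries (blue), the NSun2-/- library (red) and the WT input (crosses). At every gene the 3 Pol III libraries lie above the input, and the NSun2-/- value differs from the WT mean by at most 0.29 on the log2 scale.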

How the data were processed

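The data comprised 8 RNA bisulphite libraries, 8 tRNA-seq libraries and 3 Pol III ChIP-seq libraries with 2 inputs from mouse back skin. The authors aligned bisulphite reads with Bismark 0.7.6, as the submitters' processing notes give it, and deposited the unconverted and converted read counts and the percent unconverted per cytosine with at least 10 reads. The percent column was recomputed from the counts. Listed positions fell on cytosines of mm9 when counted from 0, and mm9 was used, although the methods name another assembly. For tRNA-seq and ChIP-seq the authors aligned reads with Bowtie, allowing 2 mismatches, distributed reads of several genes in proportion to uniquely matching reads, and deposited counts per gene that are not scaled to library size. CCA ends had been trimmed before realignment of tRNA reads.

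Here, read sequences were placed on the AspGTC gene sequences with at most 4 mismatches, which left 25 sequences unplaced. Values of single libraries were compared by exact two-sided permutation tests over 70 assignments, which were not adjusted over each other except over end positions. Fits over all features used edgeR 4.0.16 quasi-likelihood tests with TMM and filterByExpr, with limma 3.58.1 and DESeq2 1.42.0 as alternatives (R 4.3.3, Python 3.11.15, pandas 2.3.3, scipy 1.17.1). The edgeR fits were also run on simulated data. Those data held neither common factors of counts nor differences in conversion between libraries, so they do not test the fits under these conditions. Counting gives depth only as far as reads are independent molecules, which PCR and the common factors of the counts limit, so no binomial intervals were given. The 24 AspGTC genes were all counted. Named with values were bound genes, cytosine positions with enough reads, the most abundant sequences of each class (up to 5), GlyGCC and ValAAC, and the 5 families most like AspGTC in 5′ fragments. Sequences other than reads come from the mm9 reference. The members and lists were chosen with earlier results of these data known. Alternatives covered the coverage minimum, pooling of reads, mismatches, scaling, test, low-count filter, pseudocount, a replicate block and each library left out. The correction for the 5′ level, the division by common factors and the comparisons of misread bases, read coverage and gene sequences were added after the data were seen.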

Additional observations from a re-analysis of the deposited data

Results flagged for a closer look

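The change at C48 in NSun2-/- skin differed between the 2 AspGTC gene sequences, by -53.7 points between gene sequence 1 and gene sequence 2 (exact permutation test of the difference, n = 4 and 4, p = 0.0286, seen in all 4 NSun2-/- libraries against all 4 WT libraries). This contrast was chosen after the values were seen, and gene sequence 2 is a single locus. Single libraries stood apart in 2 of 46 groups of 4 libraries examined by Dixon's test, which chance flags in about 1 of 20 groups. In the first WT tRNA-seq library, 5′ fragments were 17.3% of the divided AspGTC counts, against 33.9% to 36.6% in the other WT libraries. In the fourth WT library, mature reads were 16.6% of the divided AspGTC counts, against 19.8% to 20.4% in the other WT libraries.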

How the results depend on the processing

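In all, 23 results were recomputed under 240 alternative settings, of which 188 kept their direction and side of the threshold or moved little. C48, C49, the A58 difference in 3′ fragments, the A9 difference, the ratio of reads at C2 to C48, the share of bisulphite reads and the C48 difference between gene sequences kept p = 0.0286 (exact permutation test) in every alternative run. With a library left out, C48 changed by -62.7 to -58.5 points and C49 by -72.0 to -67.7. The cause of each change below was not tested. C38 differed by 6.89 to 10.9 points, with p = 0.0571 (exact permutation test) without any 1 NSun2-/- library and 7.30 points after correction for the 5′ level. C38 less the 5′ level differed by -14.1 to -2.95 points. The 5′ cytosines differed by 11.2 to 23.2 points. The AspGTC share of counts differed by -1.13 to -0.552 points, with p up to 0.114 (exact permutation test) without WT replicate 2 (-0.552) or any 1 NSun2-/- library, and by -0.063 after division. The 5′ fragments differed by -0.0837 (without WT replicate 1) to 5.89 points, by 17.9 with exact sequences and by 15.7 after division with the added reads placed from position 4. The 3′ fragments differed by -2.33 to 1.21 points, above 0 without WT replicate 1 (1.21) or NSun2-/- replicate 3 (0.299). Mature reads differed by -9.43 to -5.27 points, by -8.24 with exact sequences and by -7.66 after division. Ends in the anticodon loop differed by -1.29 to -0.857 points, and by -1.38 after division. A58 in mature reads differed by 3.00 to 4.22 points, and by 1.66 with deposited counts, with p = 0.0571 (exact permutation test) without any 1 WT library. Mature reads without mismatch differed by -29.6 to -22.8 points, with p = 0.0571 (exact permutation test) without NSun2-/- replicate 3 or 4, and by -9.68 with deposited counts. In the family fits (log2, edgeR), 3′ fragments lay between 0.56 and 0.84, at -0.92 with total scaling, at 0.68 with DESeq2 and at 0.69 without a filter, with adjusted p = 0.0444 for the last, and were called without WT replicate 1 (adjusted p = 0.0223) or NSun2-/- replicate 1 (adjusted p = 0.0125). Mature reads lay at -1.54 with exact sequences, at -1.19 with total scaling and between -0.63 and -0.21 (without WT replicate 2) with a library left out. The 5′ fragments lay between -1.03 (without NSun2-/- replicate 3) and -0.32 (without WT replicate 2). AspGTC sequences called numbered 65 with DESeq2, 2 without a filter and 0 to 13 with a library left out. AspGTC cytosines called numbered 17 with at least 30 reads, 22 with limma and 18 to 98 with a library left out. Same-numbered samples correlated in their deviations from the group means at -0.06, -0.13, 0.31 and -0.15 (bisulphite) and 0.09, -0.67, 0.23 and -0.51 (tRNA-seq). No steady positive correlation was seen, but these few values cannot decide whether the replicate numbers pair the samples. With the replicate block, 0 AspGTC sequences and 64 AspGTC cytosines were called, and the family values were -0.38, 0.66 and -0.48, with no other call changed. Pol III medians lay between -0.21 and 0.12 with a WT library left out. Depth limits the NSun2-/- bisulphite values most in the second library and at loci such as chr10.trna851, with 11 to 66 reads at C48.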
